A study of Mus musculus with 4 samples.

Results

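The 1000 strongest CTCF binding sites of the mouse hippocampus were described against all other autosomal sites. They were chosen by the authors' peak signal: overlapping peaks of the between-replicate list were reduced to the strongest, which left 84629 of 88071 autosomal peaks, and the 1000 with the highest signal were kept. The remaining 83629 sites are called the other sites, and those ranked 1001 to 2000 are called the next 1000. The signal therefore describes the strongest sites and supports nothing about them.

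The study used ChIP-seq, which sequences the DNA recovered with an antibody, here against CTCF, from hippocampus tissue of adult male mice aged 2 months of the strain B6CASTF1/J, a first-generation cross of a C57BL/6J and a CAST/EiJ parent. Its 4 libraries form 2 biological replicates with 2 technical libraries each. Each replicate is a pool of 7 tissue samples, and the labels do not state whether the animals of the pools were separate. There is no second condition, so sites were compared with sites. Pooled tissue mixes neurons and glia, and a strong signal may stand for many cells or for high occupancy in some: these cannot be told apart.

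CTCF is a zinc-finger protein that binds a long, directional DNA sequence, blocks contacts between enhancers and promoters and halts the cohesin complex, so that pairs of sites facing each other often anchor chromatin loops. Its central zinc fingers read a core of the sequence, and further fingers can contact bases upstream of it. Many CTCF sites are shared by most tissues, and in rodents a large group of sites lies in copies of a family of short interspersed repeats. The label of the set was checked against this core, since no other mark was measured.

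The core consensus of CTCF, 12 letters of which 4 allow a pair of bases, was searched on both strands with at most 1 mismatch within 50 bp of each summit. The 8 strongest sites with a match are printed to let the core and its flanks be compared between sites of near-equal signal. Each line gives 61 bases of the mm10 reference on the strand of the match, 5′ to 3′, with the core in capitals, and is named by the nearest protein-coding gene. The reference is that of the C57BL/6J strain, so the alleles of the CAST/EiJ parent are not shown.

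Acox3 site: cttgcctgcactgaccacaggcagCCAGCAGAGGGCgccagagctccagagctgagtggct
Hnrnpa3 site: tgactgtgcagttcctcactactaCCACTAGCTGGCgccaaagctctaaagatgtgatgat
Dtnbp1 site: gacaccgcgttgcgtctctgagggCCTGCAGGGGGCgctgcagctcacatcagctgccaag
Synm site: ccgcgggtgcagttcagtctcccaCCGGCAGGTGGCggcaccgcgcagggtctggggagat
Ddr1 site: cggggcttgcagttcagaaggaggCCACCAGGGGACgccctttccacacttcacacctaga
Lbr site: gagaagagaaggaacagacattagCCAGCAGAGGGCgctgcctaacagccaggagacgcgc
Asic2 site: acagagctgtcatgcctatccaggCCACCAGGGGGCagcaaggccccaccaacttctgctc
Ubr2 site: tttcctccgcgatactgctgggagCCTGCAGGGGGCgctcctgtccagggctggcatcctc

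The regions are, in the same order, chr5:35595901-35595961, chr2:75605861-75605921, chr13:45031021-45031081, chr7:67803709-67803769, chr17:35725753-35725813, chr1:181888932-181888992, chr11:81996331-81996391 and chr17:47039015-47039075. The site near Ddr1 is on the minus strand and the others are on the plus strand. The cores near Acox3 and Lbr are the same word, and so are those near Dtnbp1 and Ubr2, whereas the flanks of each pair differ. None of the 8 summits lies in sequence that the reference marks as repeated (soft-masked).

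For contrast, the lines below show the first sites with a match among the last 1000 by rank, whose signals were 44.8 and 44.7.

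Sgo2b site: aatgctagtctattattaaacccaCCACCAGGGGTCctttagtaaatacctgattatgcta
Nlgn1 site: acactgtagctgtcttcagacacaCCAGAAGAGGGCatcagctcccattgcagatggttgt

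These regions are chr8:63760018-63760078 on the plus strand and chr3:26068870-26068930 on the minus strand, and both summits lie in masked sequence.

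The signals of the strongest sites ran from 966 to 848 with a median of 868, on the authors' score, whose scale is not stated. The other sites had a median of 170.5, and 95% of them were below 771. Just inside the threshold were sites near Gdpd4, Hmcn1 and Rasgef1b, and just outside were sites near Ddx28, Atrn and Rpl14, with signals that round to 847 or 848. The set is thus the upper end of a continuous range and has no gap at its lower edge. All 1000 passed an irreproducible discovery rate (IDR, an estimate of how many calls would fail to recur in another replicate) of 0.05 between the replicates, because the rule drew on that list, which holds 44.2% of the autosomal ranked peaks.

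In replicate 1 the signals of the strongest sites had a median of 426 and a range of 396 to 481, and in replicate 2 a median of 448 and a range of 412 to 499.7. Replicate 2 was higher at 887 sites and lower at 113. The log2 ratio of replicate 2 over replicate 1 had a median of 0.07 and an SD of 0.06 over sites. The next 1000 had the same median and SD, and all other sites had a median of 0.09 and an SD of 0.21. The higher signal in replicate 2 was thus not particular to the strong sites. With 1 value per replicate and site, these ratios carry no test. The highest ratios were at sites near A930004D18Rik (400.0 and 470.0 in replicates 1 and 2, a log2 ratio of 0.23), Irak4 (397 and 464, 0.22) and Rnls (398 and 462, 0.22). Irak4 encodes a kinase of Toll-like receptor signalling. The lowest were near Wipi1 (445 and 412, -0.11), Arhgap27 (441 and 412, -0.10) and Wdr83os (444 and 415, -0.10). Over all 1000 strong sites the ratio thus stayed between -0.11 and 0.23.

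**Figure D1:**
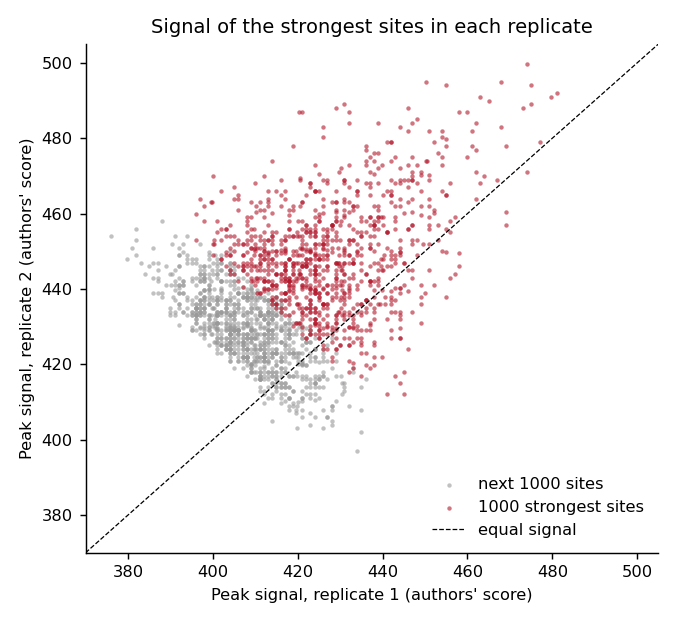
Peak signal in replicate 1 (x axis) and replicate 2 (y axis), on the authors' score, for the 1000 strongest sites (red) and ranks 1001 to 2000 (grey), 1 point per site, with a dashed line of equal signal. Most red points, 887 of 1000, lie above the line, and the 2 sets meet without a gap.

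The strongest site of all lay in an intron at chr5:35595667-35596204, 12404 bp from the nearest protein-coding transcription start site (TSS), that of Acox3, a peroxisomal acyl-CoA oxidase. It reached 474 in replicate 1 and 499.7 in replicate 2. The second lay between genes at chr2:75605615-75606156, 53376 bp from Hnrnpa3, which encodes an RNA-binding protein, with 481 and 492. The third, at chr13:45030720-45031337, was 28867 bp from Dtnbp1, which encodes dysbindin, a subunit of a complex in endosomal sorting, with 475 and 494. The fourth, at chr3:144720192-144720883, was at the promoter of Sh3glb1, which encodes endophilin B1, 216 bp from its TSS, with 479.6 and 491. These 4 sites thus span an intron, intergenic sequence and a promoter at nearly the same height.

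The other 11 of the 15 strongest were nearest to Synm, Irx1, Ier5, Ddr1, Lbr, Disp3, Asic2, Ubr2, Stat5a, Arid3a and 4930523C07Rik, with signals from 960.4 down to 945. Of the 15 sites, 9 were intergenic, 3 intronic and 3 within 1 kb of a TSS. The distance to a protein-coding TSS varied widely: the site of Irx1, a homeobox gene, was 505143 bp away, whereas that of Disp3 was 290 bp away. The site nearest to Asic2, which encodes an acid-sensing ion channel, was 27877 bp from its TSS, in an intron of a long noncoding RNA gene. A match with at most 1 mismatch was present at 10 of the 15, exact at 4, and the other 5 had 2 mismatches as their best.

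The CTCF core marked most of the strong sites. A match was present at 735 of 1000, 73.5% (95% exact interval 70.6 to 76.2), against 51.7% of the other sites (51.3 to 52) and 1.40% of equal windows 1 kb from the strong summits. An exact match was present at 31.9% of the strong sites, 33.5% of the next 1000 and 10.1% of the others. The strongest block was not the richest: among 84 full blocks of 1000 sites by rank, 6 held a match more often, and the next 1000 did so at 76.5%. From there the share fell to 34.6% in block 83. Where a match was present it lay close to the summit, at a median of 6.5 bp between their centres. It was on the plus strand at 52.5% of the strong sites with a match (48.8 to 56.2).

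At 2 allowed mismatches 94.7% of the strong sites had a match, against 94.2% of the next 1000 and 77.7% of the others. For the others in masked sequence the share was 91.5%. This left 53 strong sites without a match. Of these 53, 18 were intergenic, 17 at promoters and 13 in introns. Their median signal was 870.1 and their mean GC content 58.1%. All 53 were in the thresholded list of replicate 1 and in that of replicate 2. This is near the shares over all strong sites, 96.2% in replicate 1 and 94.7% in replicate 2.

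The word most common at the other sites was rare at the strong ones. Among the 735 matches there were 170 different words, the most frequent being CCACCAGGGGGC, at 40 sites (5.44%). It was followed by CCAGCAGAGGGC at 37 sites (5.03%), the word of the Acox3 and Lbr sites printed above, and CCACCAGGTGGC at 31 (4.22%). Among 43197 matches at the other sites, CCAGAAGAGGGC, the word of the weak Nlgn1 site printed above, made up 35.8%. That word was found at 6 strong sites, 0.816% (0.300 to 1.77). It made up 77.4% of the matches at other sites in masked sequence and 3.23% of those outside it. The 43197 matches of the other sites held 420 different words and the 24236 outside masked sequence held 418, numbers that rise with the count of matches.

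Masked sequence was rare at the strong sites. The summit base was masked at 41 of them, 4.10% (2.96 to 5.52), against 31.1% of the other sites. The next 1000 were close, at 5.30% (3.99 to 6.88), and block 5 was lower, at 3.2%. Farther along the ranks the share rose to 45.6% in block 77. Of the 41, 25 were intronic, 15 intergenic and 1 at a promoter. A core match was present at 37 of the 41, and the highest signal among them was 929.9. The reference marks repeats without naming their family, so the repeat families were not analysed here. The part of repeats in the signal was not tested.

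Because of this difference, the strong sites were also set beside the 57611 other sites outside masked sequence. Of those, 42.1% had a match (41.7 to 42.5), so the gap to 73.5% widened. The preference for a base was taken as information, with a maximum of 2 bits per position. Over the 12 core positions it summed to 16.79 bits at the strong sites, 16.83 bits at the next 1000 and 15.97 bits at these others. At the fourth core position C was found at 62.6% of strong sites and 52.7% of these others, and at the fifth at 56.2% and 47%. In the next 1000 C stood at 63.5% and 50.1% at these positions.

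Outside the core the strong sites showed a base preference that was close to that of the next 1000, larger than that of the unmasked others and smaller than that of the masked others. Over the bases 20 to 9 before the core, information summed to 2.00 bits at the strong sites, 1.57 bits at the next 1000, 0.52 bits at the unmasked others and 5.65 bits at the masked others. Counting back from the base before the core as -1, C stood at -10 in 58.6% of strong sites against 40.8% of unmasked others, T at -12 in 53.6% against 45.2%, C at -15 in 50.2% against 30.1%, and G at -16 in 49.3% against 33.9%. In the next 1000 these bases stood at 56.5%, 55.4%, 43.4% and 45.4%, in the same order. Directly after the core, the commonest base of the strong sites was G, at 52.9%, that of the next 1000 was also G, at 48.9%, and that of the unmasked others was A, at 48.6%. Over the 10 bases after the core the sums were 2.57 bits at the strong sites, 2.39 bits at the next 1000, 1.18 bits at the unmasked others and 8.84 bits at the masked others. Farther out little preference was left, with a sum of 0.15 bits over the bases 40 to 26 before the core.

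The commonest bases of the strong sites at -16 to -10 spell GCAGTTC, and the Synm and Ddr1 sites printed above carry it there exactly. At that place it was exact at 31 of 735 strong sites with a match, 4.22% (2.88 to 5.93), against 2.75% of the next 1000 (1.71 to 4.17) and 0.520% of the unmasked others (0.433 to 0.619). With at most 1 mismatch it was present at 102 strong sites, 13.9% (11.5 to 16.6), against 10.5% of the next 1000 (8.38 to 12.8), 3.99% of the unmasked others (3.75 to 4.24) and 10.4% of the masked others. Allowed to start anywhere from -20 to -10, an exact copy preceded the core at 41 strong sites, 5.58% (4.03 to 7.49), the Hnrnpa3 site among them, at 3.27% of the next 1000 (2.13 to 4.79) and at 0.776% of the unmasked others (0.669 to 0.894). The word was read off the strong sites themselves, so its share there is a description. Strong sites with at most 1 mismatch had a median signal of 875 and those without one 866, in a set chosen by signal whose SD was 22.4. An exact core was present at 39.2% and 44.1% of them, and 9.80% and 15.6% were at promoters. These differences were not tested.

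**Figure D2:**
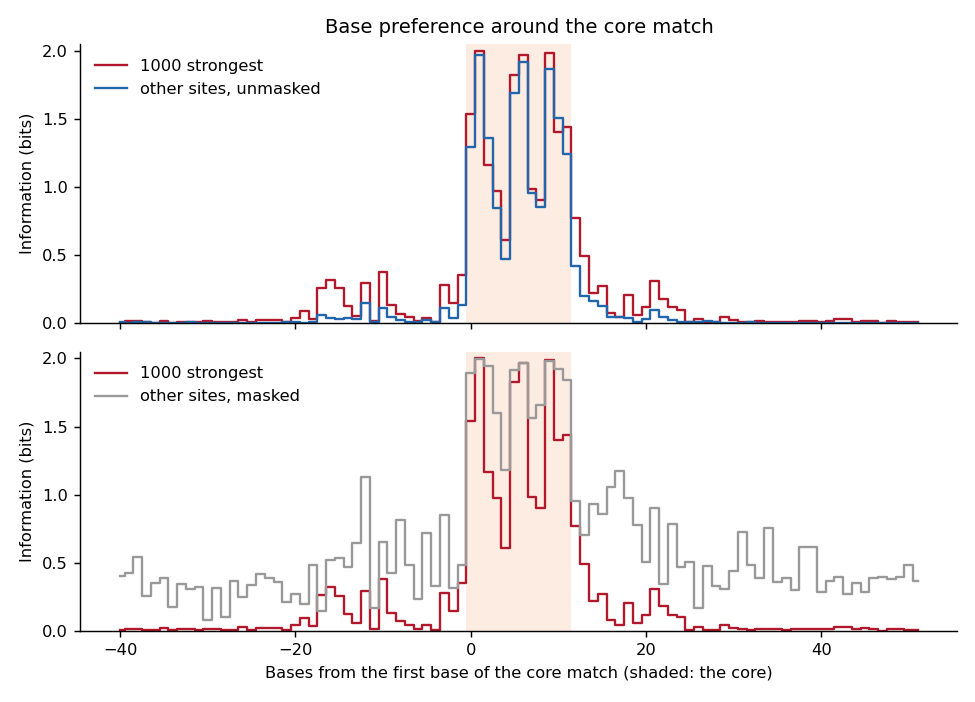
Information per base (y axis, bits) by distance from the first base of the core match (x axis), for the strongest sites (red) with the other sites outside masked sequence (upper panel, blue) and in masked sequence (lower panel, grey); the core is shaded. The red line shows raised stretches before and after the core, while the grey line is raised across the whole window.

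In the lower panel the matches in masked sequence were alike over the whole window, with 4.60 bits over the same 15 distant bases, where the strong sites had 0.15. Such matches thus share their surroundings as well as the core, and the strong sites share only the bases near it.

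More than 1 core was also more frequent. Within 100 bp of the summit, at least 2 separate matches were present at 56 strong sites, 5.6% (4.26 to 7.21), against 4.0% of the next 1000 and 1.39% of the others (1.31 to 1.47). All 83 later full blocks were below 5.6%. Of the 54 sites with exactly 2, the matches pointed the same way at 37, towards each other at 8 and apart at 9, with a median of 50.5 bp between their starts. An intronic site nearest to Mthfd2l, a mitochondrial folate enzyme gene, held 4 matches, with signals of 433 and 435 in replicates 1 and 2. The promoter site of Lsm11, which encodes a protein of histone mRNA processing, held 3, with 446 and 488. The strongest sites with exactly 2 were nearest to Dtnbp1 (475 and 494), Fam92b (450.2 and 495) and Crybb3 (461 and 482). Among the first 100 strong sites 11 had 2 or more, and among the last 100 there were 4.

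The sequence around strong summits was rich in G and C. In the 100 bp on either side of the summit, the mean GC content was 54.4% ± 7.56 (SD over 1000 sites), against 52% in the next 1000 and 47.7% in the others, and 49.8% in the others outside masked sequence. It fell within the set from 57.7% in the first 100 sites to 53.2% in the last 100. The median number of CpG dinucleotides was 4.0 at the strong sites, also 4.0 in the next 1000, and 2.0 at the others. The part of GC content in the signal was not tested. Peak width was greater too, with medians of 543 bp for the strong sites, 522 bp for the next 1000 and 440 bp for the others. Among the others 440 bp was also the upper quartile, so this width recurs there.

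Strong sites lay at promoters more often than the sites of any other full block. Within 1 kb of a TSS were 178, 17.8% (15.5 to 20.3), against 12.5% of the next 1000 and 13.5% of the others (13.2 to 13.7). The 83 later full blocks ran from 8.9% to 16.8%. The last 629 sites, a partial block of the weakest, reached 23.7%, so promoter share did not simply fall with signal. Outside masked sequence the others reached 17%, and the difference from the strong sites is then within the counting interval. Intergenic sequence held 39.6% of the strong sites (36.6 to 42.7) against 35.2% of the others, and introns held 36.6% (33.6 to 39.7) against 47.0%. The next 1000 were close, with 42.4% intergenic (39.3 to 45.5) and 38.3% intronic (35.3 to 41.4). Of the 83 later full blocks, 19 had a larger intergenic share than the strong sites. Coding exons held 2.20% of the strong sites, 1.70% of the next 1000, 1.78% of the others and 2.51% of the others outside masked sequence. Other exon sequence held 3.80% of the strong sites, 5.10% of the next 1000 and 2.49% of the others.

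At promoters, the strong sites stood on the upstream side. The summit was upstream of the nearest TSS at 149 of 178 promoter sites, 83.7% (77.4 to 88.8), against 68.8% in the next 1000 (59.9 to 76.8) and 53.0% at other promoter sites (52.1 to 53.9). It was within 250 bp of that TSS at 70.2% (62.9 to 76.8), against 63.2% in the next 1000 (54.1 to 71.6) and 49.8% of the others, and the median distances were 120, 153 and 252 bp. The core match was less frequent at strong promoter sites than at strong intergenic or intronic ones, at 61.2% (53.7 to 68.4), 77% and 76.5%. It was present at 69.6% of promoter sites in the next 1000 (60.7 to 77.5) and at 28.5% of other promoter sites. Where all matches lay on 1 strand, that strand was the gene's at 66 of 106 strong promoter sites, 62.3% (52.3 to 71.5). The share was 60.8% in the next 1000 (49.1 to 71.6) and 54.6% in the others (52.8 to 56.4). These intervals overlap. GC content at strong promoter sites averaged 62.1%, against 57.5% at other promoter sites.

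**Figure D3:**
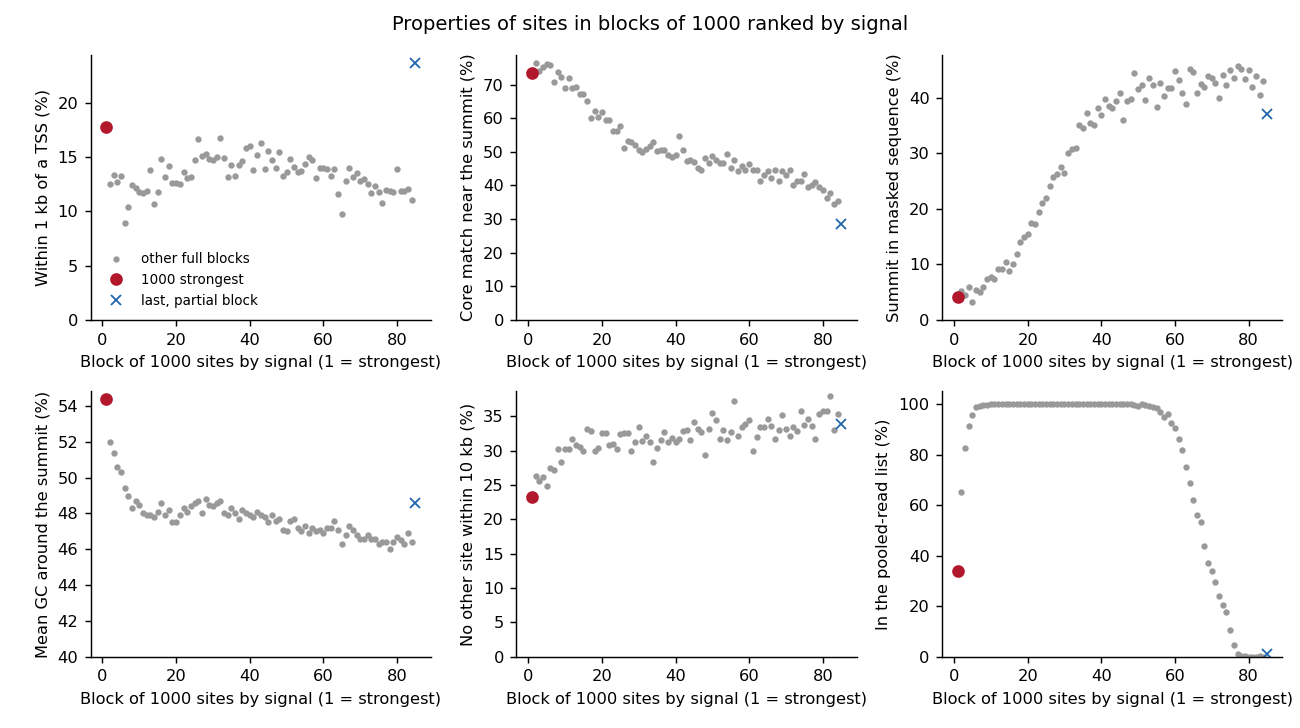
Each panel plots 1 property (y axis, percent) for blocks of 1000 sites ordered by signal (x axis, 1 is the strongest), with the strongest 1000 in red, the 83 later full blocks in grey and the last 629 sites as a blue cross; the GC axis starts at 40%. The red point is highest for GC content, highest among full blocks for promoters, lowest for sites with no neighbour within 10 kb, and far below most blocks for the pooled-read list.

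The nearest protein-coding TSS was closer than at other sites, at a median of 15621 bp against 18206 bp in the next 1000 and 21497 bp in the others. All 83 later full blocks had a longer median. More than 50 kb from any such TSS were 20.9% of the strong sites (18.4 to 23.6), 24.8% of the next 1000 (22.2 to 27.6) and 30.3% of the others. The strong sites were spread over 962 different nearest genes: 927 genes had 1, 32 had 2 and 3 had 3. The 3 genes were Fgf1, a growth factor gene, Ptpru, a receptor phosphatase gene, and Smug1, a DNA repair gene. The Smug1 sites lay within chr15:103165622-103182313, at signals of 864, 887 and 931.

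A strong site within 10 kb of a TSS was present at 506 of 20780 autosomal protein-coding genes, 2.44%. Against this, the share was 11.3% (8 of 71) for cytosolic ribosomal proteins, 8.51% (4 of 47) for imprinted genes, 7.69% (3 of 39) for Hox genes, 5.88% (2 of 34) for respiratory complex I and 5.88% (1 of 17) for microglia markers. It was 5.26% (1 of 19) for cohesin and architectural factors, 4.17% (1 of 24) for hippocampal subfield markers, 4.0% (1 of 25) for glutamate receptors and 1.75% (1 of 57) for clustered protocadherins. No strong site lay near activity-induced genes (0 of 27), GABA-A and GABA-B receptors (0 of 15) or interneuron (0 of 22), astrocyte (0 of 16), oligodendrocyte lineage (0 of 16), vascular (0 of 14) and liver genes (0 of 19). Any CTCF site at all lay within 10 kb of 72.5% of the genes, of all 27 activity-induced genes and of all 71 ribosomal protein genes. The counts are small, neighbouring genes share sites, and no list was tested.

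Among the ribosomal protein genes, Rpl26 had its site 122 bp from a TSS with signals of 442 and 448 in replicates 1 and 2. The site of Rps19 was 5915 bp away, with 429 and 445. A further 5 were between 5590 and 7742 bp away, and 3 of these lay within 1 kb of another TSS. The 3 Hox genes, Hoxa3, Hoxa7 and Hoxa9, share a single site at chr6:52221534-52222083, with 433 and 443. They therefore count as 1 site, between genes of a cluster that sets body position.

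Among imprinted genes the strongest sites were near Mcts2 (446 and 473), Inpp5f (437 and 442) and Kcnk9 (429 and 431), at 9905, 1898 and 3222 bp from a TSS. Grm4, a metabotropic glutamate receptor gene, had a site 631 bp from its TSS with 441 and 479. Pcp4, which encodes a calmodulin-binding peptide and marks hippocampal area CA2, had one 10 bp from its TSS with 437 and 452. For Ndufc1, a subunit gene of respiratory complex I, the distance was 53 bp and the signals 447 and 475. Ndufb8, of the same complex, had a site 7286 bp away with 424 and 444. The site of Pcdhac1, a C-type protocadherin gene, was 71 bp from its TSS with 436 and 423. Esco1, which encodes an acetyltransferase of cohesin, had one 7387 bp away with 427 and 455, and Cx3cr1, a microglial chemokine receptor gene, had one 3486 bp away with 419 and 447.

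Strong sites were seldom isolated. The nearest other site was at a median of 4596 bp (quartiles 2237 and 9537), against 4589 bp in the next 1000 and 5456 bp in the others. No other site lay within 10 kb of 232 strong sites, 23.2% (20.6 to 25.9), whereas this held for 32.1% of the others (31.7 to 32.4) and for 24.9% to 37.9% of later full blocks. The next 1000, at 26.3% (23.6 to 29.1), overlapped the strong sites in their interval. Within 100 kb there were on average 13.9 other sites around a strong site and 12.2 around the others, and the later full blocks ran from 11.3 to 13.2.

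The same share was taken within each context. Among intergenic sites 24% of the strong (19.9 to 28.5) and 37.9% of the others had no neighbour within 10 kb, and among intronic sites 23.8% (19.5 to 28.5) and 30.8%. At promoters the shares were 22.5% (16.6 to 29.3) and 23.9%, and the interval holds both. Whether the difference varied between contexts was not tested. The promoter medians were 4829 bp for the strong, 3834 bp for the next 1000 and 3720 bp for the others. More than 1 overlapping peak was merged into 8.5% of the strong sites, 9.90% of the next 1000 and 3.97% of the others.

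**Figure D4:**
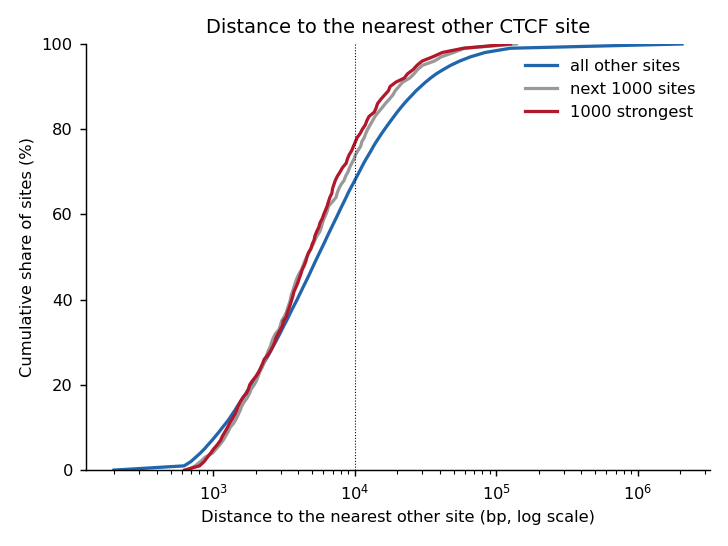
Cumulative share of sites (y axis, percent) by distance to the nearest other site (x axis, bp, log scale), for the 1000 strongest sites (red), ranks 1001 to 2000 (grey) and all other sites (blue), with a dotted line at 10 kb. The red and grey lines run together, and the blue line falls to their right beyond a few kb.

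The site farthest from any other, at chr19:15035509-15036047, was 125763 bp from its neighbour and 437714 bp from the TSS of Tle4, a transcriptional corepressor gene, and had signals of 446 and 445 in replicates 1 and 2. The next was in an intron of Lrmda at chr14:22578119-22578607, 113852 bp from another site, with 429 and 438. Sites nearest to Rgs17, Nmbr and Hmcn1 followed, at 92278, 81172 and 73366 bp. A core match was present at 4 of these 5. The Hmcn1 site is also 1 of the 3 just inside the threshold.

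The nearest neighbour of a strong site was usually not strong. Its median signal was 210.1 (quartiles 91.4 and 530.4), against 216 for neighbours of the next 1000 and 179 for neighbours of the others. It was itself among the 1000 strongest at 11 strong sites, at 16 of the next 1000 and at 1008 of the 83629 other sites. Between adjacent strong sites on a chromosome lay a median of 52 other sites, over a median distance of 916809 bp, and 10 of 981 adjacent pairs had no site between them.

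At 100 kb, but not at 10 kb, strong sites were closer to each other than the sites of most blocks. Another strong site lay within 100 kb of 168 of them, 16.8%, whereas sites of the same block did so at 9.5% to 19.4% in later full blocks, with a median of 13.4%. Of the 83 later blocks 82 were lower, the exception being the third block. Within 10 kb the number was 14, against a median of 16 over later blocks. Within 1000 kb another strong site lay near 73.9%, against 69.1% for the next 1000 among themselves.

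The closest pair stood 2615 bp apart near Trim29, a tripartite-motif gene, on chromosome 9, at signals of 861 and 869, and neither site had a match with 1 mismatch. The next, 5020 bp apart on chromosome 6, lay at the promoters of the zinc-finger genes Zfp786 and Zfp398, at 884 and 871. A pair near Smug1 on chromosome 15 was 5069 bp apart (887 and 931), with 1 weaker site between. A pair near Dcn, which encodes the matrix proteoglycan decorin, was 5462 bp apart on chromosome 10 (865 and 862). The last of the 5, 8627 bp apart on chromosome 5, was nearest to Bcl7a and Mlxip (852 and 891). In the Zfp786, Smug1 and Dcn pairs the matches pointed apart, and in the Bcl7a pair they pointed the same way.

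Over all adjacent strong pairs at most 50 kb apart with a match at each, 13 of 25 pointed apart, 2 pointed towards each other and 10 pointed the same way. At most 100 kb apart, the numbers were 20, 10 and 16 of 46, and at most 1000 kb apart they were 70, 70 and 128 of 268. The next 1000 gave 11, 1 and 13 of 25 pairs at 50 kb, 22, 5 and 26 of 53 at 100 kb, and 86, 65 and 131 of 282 at 1000 kb. Facing pairs, the arrangement of loop anchors, were 2 of 25 and 1 of 25 at 50 kb, and each wider limit includes the pairs of the narrower ones.

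The densest 1000 kb window, on chromosome 10, held 8 strong sites among 48 sites in all. The summits of the 8 spanned 954425 bp of it, at chr10:60245276-61199701. In order along the chromosome they were nearest to Chst3 (469 in replicate 1 and 457 in replicate 2), Gm17455 (449 and 466), Cdh23 (425 and 438), Slc29a3 (431 and 439), Unc5b (452 and 479), Pcbd1 (423 and 444, then 434 and 452) and Tbata (417 and 439). Cdh23 encodes a cadherin of hair-cell links and Unc5b a netrin receptor. A window on chromosome 3, with genes from Cym to Gpr61, held 7 among 86 sites. A window on chromosome 7, from Irf2bp1 to Cblc, held 6 among 138. The windows were picked for their strong sites, and the next 3 held 5 strong sites each, among 110, 81 and 106 sites.

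**Figure D5:**
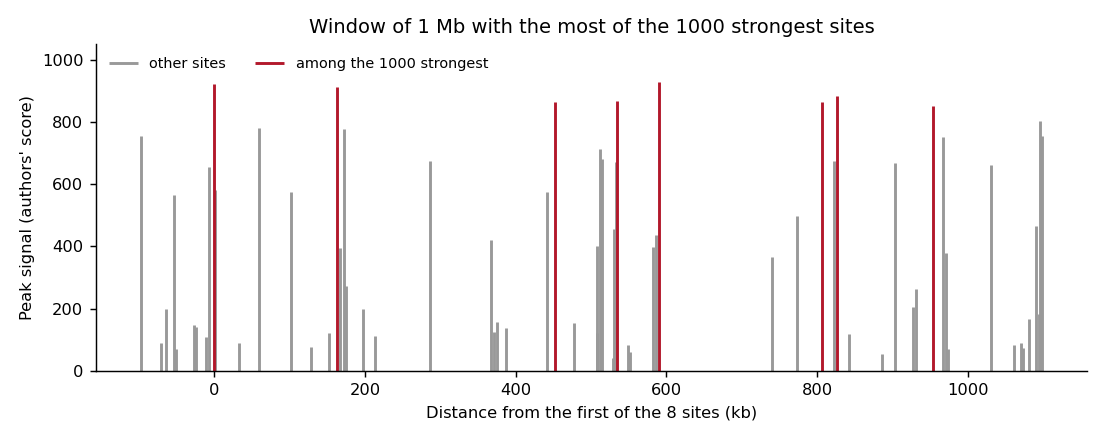
Peak signal (y axis, authors' score) of each site by distance from the first of the 8 strong sites (x axis, kb) in the densest window and 100 kb on either side; red lines are among the 1000 strongest and grey lines are other sites. The 8 red lines, from 851 to 927, stand apart from each other with weaker sites between.

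By chromosome, strong sites made up from 0.619% of sites (21 of 3394 on chromosome 13) to 1.63% (60 of 3674 on chromosome 15). Chromosome 11 held the most, 97, or 7.95 per 10 Mb, and it also had the most sites per Mb, 51.6. Chromosome 13 had 1.74 strong sites per 10 Mb. Its stretch of 27892724 bp from 91908399 held no strong site but 843 other sites, the strongest at 847.

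Most of the strong sites were missing from the pooled-read list. That list was made by the authors from the reads of both replicates together, with its own IDR of 0.05, and 34.7% of its autosomal ranked peaks passed. Of the strong sites, 341 were overlapped by a passing peak, 34.1% (31.2 to 37.1), against 65.3% of the next 1000 and 77.8% of all other sites, and 82.5% of sites ranked 2001 to 3000. The first block with at least 99% in the list began at rank 6001. Of the 83 later full blocks 15 had a lower share than the strong sites, all of them at the weak end of the ranks. All 1000 strong sites were in the ranked pooled-read list with the same coordinates, summit and signal, and all but 14 of the other sites were overlapped by a peak there. The 659 missing strong sites were thus the same peaks at the same signal, and no peak overlapping them passed the IDR of that list. Within the set the number in the list rose from 10 of the first 100 sites to 52 of the last 100.

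The deposited IDR score of the strong sites in that list, where 540 marks an IDR of 0.05, had a median of 348, and 335 sites had its lowest value, 72. Among the 341 present sites the lowest score was also 72, so not every site counted as present passed by its own peak. Of the 15 strongest sites 14 were missing, and 11 scored 72; the one present was that of Disp3. For the 659 missing sites the log2 ratio of the list's 2 input signals had a median size of 0.12, and for the 341 present sites 0.03. In the next 1000 it was 0.09. The IDR of the list is computed from these 2 inputs, so a difference between missing and present sites follows from the threshold itself. Between the replicates themselves the ratio varied alike in the missing and the present sites, with SDs of 0.05 and 0.06. A core match was present at 73.6% and 73.3%. The single-replicate lists held far more of the set: 96.2% were in that of replicate 1, where 43.4% of ranked autosomal peaks passed, and 94.7% in that of replicate 2, where 42.1% passed. Both lists held 909 strong sites and each site was in at least 1. Why strong sites failed the pooled-read threshold was not tested.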

How the data were processed

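The files used were peak lists that the authors deposited, per the labels on mm10, for 4 libraries in 2 biological replicates. The peak signal is a deposited score of unstated scale, and the deposited IDR is given as a score up to 1000 and as −log10. Neither the aligner nor the peak caller is given in the sources used here, the control that the labels list was not used, and read depth is unknown. Replicate signals came from the input columns of the between-replicate ranked list: by coordinates and signal, the replicate 1 list held 78.1% of the first inputs and 0 of the second, and the replicate 2 list held 80.0% of the second and 0 of the first. Autosomal peaks that overlapped were reduced to the strongest. Genes came from the GENCODE M21 basic annotation, and sequence and soft-masking from the RefSeq copy of GRCm38, the assembly that mm10 names. A summit took the first class among promoter, coding exon, other exon, intron and intergenic.

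The members, the 16 gene lists and the rule for named sites were chosen with earlier results of these data known. Named sites were the 15 strongest, 3 on each side of the threshold, the 5 farthest from another site, the 5 closest pairs, the 3 highest and lowest replicate ratios, the 5 with most core matches, and up to 3 genes per list, of which 1 is not reported here. Windows, chromosomes and genes with 3 sites were picked after their values were seen. No test was run: sites were selected on their signal and come from 2 pools. Intervals are 95% exact (Clopper-Pearson) and cover counting of sites only. Alternatives varied the number of sites, the ranking signal, the IDR, the reduction of peaks, the chromosomes and each limit. The code, run in Python 3.11.15 with numpy 2.4.6, pandas 2.3.3, scipy 1.17.1, pysam 0.24.0 and matplotlib 3.10.9, was tested on simulated data, where it found 100% of 1000 planted core matches and called 0.400% of 1000 random windows.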

Additional observations from a re-analysis of the deposited data

How the results depend on the processing

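Of 66 recomputed values, 48 stayed within the counting interval of the reported value and kept the direction of the difference from the other sites. The 48 include the comparison with other sites outside masked sequence. It reuses the values of the strong sites, so they could not leave their interval. No paired analysis was possible because the result comes from no test. With the 500 strongest sites the share with another such site within 100 kb was 7.60% and the share in the pooled-read list 23.8%. With the 2000 strongest these were 29.2% and 49.7%, and the promoter share was 15.2%, against 13.5% of the other sites. Ranking by 1 replicate alone gave pooled-read shares of 38.0% to 38.9%, promoter shares of 16.4% to 19.1%, core shares of 72.8% to 74.1%, isolated shares of 23.0% to 24.2%, spacing shares of 16.2% to 16.4%, and medians of 4519 to 4610.5 bp and 15717 to 16320.5 bp. At an IDR of 0.01 the median distance to another site was 5116 bp and 26% were isolated, since fewer sites were left. Other limits gave promoter shares of 15% (500 bp) and 38.2% (5 kb), core shares of 31.9% (exact) and 94.7% (2 mismatches), isolated shares of 47.0% (5 kb) and 8.80% (20 kb), and spacing shares of 9.0% (50 kb) and 30.7% (200 kb). In each of these the strong sites kept the direction. The exception was the ranked pooled-read list, which held 100% of the strong sites and all but 14 of the others. The comparison with other sites outside masked sequence, which leaves the values of the strong sites as they were, was added after seeing the data.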
